A study of Mus musculus with 23 samples.

Results

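Tumour cells of C3-1-TAg mice, sorted into SOX10 high and SOX10 low fractions, gave 9 of the 23 RNA-seq libraries of the series. They were chosen by their sample titles, which give 5 SOX10 high and 4 SOX10 low libraries and call all of them basal. Both fractions came from spontaneous mammary tumours of adult FVB mice carrying the C3-1-TAg transgene, in which the prostate steroid-binding protein C3(1) promoter drives SV40 T antigen. SV40 T antigen is known to bind and disable the p53 and RB tumour suppressors, and both fractions carry it. Each library was made from about 2000 cells, with poly(A) RNA as the template for full-length cDNA. The submitters' design text speaks of biological replicates, but the labels tie no library to a mouse or tumour, so p-values measure the spread between libraries whatever its source. How the cells were stained or gated is not stated in the labels. The comparison asks how the transcriptome of tumour cells with much SOX10 differs from that of cells with little.

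SOX10 is a transcription factor of the SRY-related HMG-box family, best known for specifying neural crest cells and for maintaining glial and pigment cells. In the mammary gland it is expressed in fetal stem cells and in adult luminal progenitors and some basal cells, and it is frequent in triple-negative breast cancer. SOX factors of the SOXE group, which holds SOX8, SOX9 and SOX10, also switch on cartilage matrix genes. Luminal progenitors are the precursors of milk-secreting alveolar cells, and they depend on the ETS factor ELF5 and carry the receptor KIT.

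Values are RPKM, read numbers scaled to gene length and library size, after a constant of 2 was taken off each deposited value above 0. Fold changes are differences of log2(RPKM + 1), SOX10 high minus SOX10 low, and understate the difference of genes near 0. Between 11023 and 12504 of the 24322 genes listed reached 1 RPKM in a library. Relative sequencing depth, read from the spacing of low values and set against SOX10 high library 1, ran from 0.714 to 1.29 in SOX10 high and from 0.629 to 0.883 in SOX10 low. Libraries 1 to 5 of SOX10 high and 1 to 4 of SOX10 low carry numbers that only name them. Several libraries stood apart. The summed level of 18 immune markers was 14.7 to 154 RPKM in SOX10 high libraries, but 3144 RPKM in SOX10 low library 1, against 20.6 to 75.7 RPKM in SOX10 low libraries 2 to 4. SOX10 high library 1 resembled SOX10 low library 2, and SOX10 high library 2 resembled SOX10 low library 3, more than they resembled any library of their own fraction: their log2 levels across genes correlated at r = 0.979 and r = 0.967, a description over 11948 genes that are not independent. The labels do not say whether such libraries came from the same tumour. The fit treats all 9 libraries as independent, and its errors and p-values rest on that.

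Of the basal genes, the keratin genes Krt14 and Krt17 were abundant, whereas the contractile genes were low. The basal keratin gene Krt14 had 776, 415, 263, 124 and 89.7 RPKM in SOX10 high libraries 1 to 5, against 348, 1007, 451 and 275 RPKM in SOX10 low libraries 1 to 4. The luminal keratin gene Krt8 stood beside it at 127 to 479 RPKM in SOX10 high and 215 to 460.1 RPKM in SOX10 low libraries. Krt17, another basal keratin gene, had 48.7 to 305 RPKM in SOX10 high and 123 to 373 RPKM in SOX10 low libraries. Krt5, the usual partner of Krt14 in basal cells, reached 64.9 RPKM in SOX10 high library 2 and 18.98 RPKM in SOX10 low library 3, and at most 5.71 RPKM elsewhere. The contractile genes Acta2, Myh11 and Cnn1, which define myoepithelial cells, stayed at or under 10.5 RPKM in all 9 libraries, and Tagln, a further contractile gene, had 0.897 to 12.6 RPKM in SOX10 high and 0.955 to 25.5 RPKM in SOX10 low libraries. Of 12 tested genes of the basal and myoepithelial list, limma called 0, with 0 higher and 1 lower at an unadjusted p under 0.05, and the median fold change was -0.37. Of 19 tested luminal and epithelial genes it called 0 as well, with 0 higher and 1 lower at that unadjusted level and a median of 0.15. Over all tested genes the unadjusted shares were 1.65% higher and 1.41% lower, with a median fold change of -0.04. Epcam, the epithelial adhesion molecule, was abundant throughout, at 639 to 1215 RPKM in SOX10 high and 489 to 700.2 RPKM in SOX10 low libraries.

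Sox10 itself followed the labels. It had 144, 91.9, 159.6, 158 and 164 RPKM in SOX10 high libraries 1 to 5, against 40.9, 12.8, 31.5 and 2.10 RPKM in SOX10 low libraries 1 to 4. The lowest SOX10 high library stood above the highest SOX10 low library, but SOX10 low cells still held Sox10 RNA, and their libraries spread more widely as a ratio of the highest to the lowest. Because the cells were sorted on SOX10, this difference is a description only. Sox10 stayed among the genes fitted, so the counts over all tested genes given below include it.

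Core histone genes led the comparison, 5 genes of histone H2B, a subunit of the nucleosome. H2B genes are similar copies, and short reads can be assigned to the wrong one where copies share a stretch as long as the read. Reporter mice in which Sox10 regulatory sequence drives a fluorescent protein fused to H2B exist, and reads from such a fusion could be assigned to these genes; the labels do not say whether the sorted cells carried it, and its part in the values was not tested. The stretches of coding sequence below show how close the copies are, from coding base 121 to 240, in GENCODE M21 transcripts of build GRCm38; capitals mark bases that differ from Hist1h2bm. The first 5 are the genes that passed the test, and Hist1h2bc, the most abundant other H2B gene, is shown for contrast.
Hist1h2bm: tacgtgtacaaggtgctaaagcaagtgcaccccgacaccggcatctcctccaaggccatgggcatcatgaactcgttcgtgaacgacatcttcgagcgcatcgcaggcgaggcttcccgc
Hist1h2bb: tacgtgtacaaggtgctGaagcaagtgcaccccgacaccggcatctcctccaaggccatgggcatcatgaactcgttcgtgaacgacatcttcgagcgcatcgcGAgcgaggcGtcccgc
Hist1h2bf: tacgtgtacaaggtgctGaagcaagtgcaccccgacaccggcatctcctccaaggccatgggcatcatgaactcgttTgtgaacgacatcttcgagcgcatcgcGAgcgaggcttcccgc
Hist2h2be: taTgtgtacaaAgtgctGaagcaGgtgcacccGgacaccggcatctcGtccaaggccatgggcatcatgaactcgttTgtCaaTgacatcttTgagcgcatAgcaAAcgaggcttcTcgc
Hist2h2bb: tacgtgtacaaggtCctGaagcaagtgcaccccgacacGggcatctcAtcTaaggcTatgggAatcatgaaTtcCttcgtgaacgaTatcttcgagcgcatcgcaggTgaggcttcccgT
Hist1h2bc: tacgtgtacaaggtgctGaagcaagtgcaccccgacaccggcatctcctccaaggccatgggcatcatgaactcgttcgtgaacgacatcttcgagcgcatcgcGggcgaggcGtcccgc

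Over the 381 coding bases, identity to Hist1h2bm was 94.0% for Hist1h2bb, 97.1% for Hist1h2bf, 87.1% for Hist2h2be and 89.5% for Hist2h2bb. Hist1h2bc, which was not called, was closer than all 4 of these, at 97.9%. Of all 50-base stretches, the length of the shorter reads, 44.9% of those in Hist1h2bm, 55.4% in Hist1h2bb, 80.4% in Hist1h2bf and 97.6% in Hist1h2bc recurred exactly in another H2B gene of the 17 compared. For Hist2h2be and Hist2h2bb, on chromosome 3, this share was 0.0%. The share counts exact matches between gene copies only, so assignment of reads with mismatches was not tested. The other 4 genes lie on chromosome 13.

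All 5 genes rose in SOX10 high cells. Hist1h2bm had 76.9, 83.0, 196, 75.6 and 90.9 RPKM in SOX10 high libraries 1 to 5, against 12.8, 0.410, 1.33 and 0.438 RPKM in SOX10 low libraries 1 to 4. Hist1h2bb had 97.1, 103, 212, 75.0 and 97.5 RPKM in SOX10 high and 14.5, 0.808, 1.75 and 0.518 RPKM in SOX10 low libraries. Both were strong in every SOX10 high library, highest in library 3, and near 0 in every SOX10 low library but the first. Hist1h2bf was lower in level and also highest in SOX10 high library 3, with 29.3, 22.6, 72.6, 30.5 and 36.1 RPKM in SOX10 high and 4.498, 0, 0.497 and 0.098 RPKM in SOX10 low libraries. Hist2h2be had 14.2, 13.4, 36.5, 12.9 and 18.4 RPKM in SOX10 high and 2.71, 0.480, 1.14 and 1.11 RPKM in SOX10 low libraries. Hist2h2bb had 12.9, 9.10, 32.3, 11.6 and 14.8 RPKM in SOX10 high and 1.97, 1.34, 0.870 and 0.945 RPKM in SOX10 low libraries. For none of the 5 did the fractions overlap.

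The fold changes on the log2 scale were 5.11 ± 0.62 for Hist1h2bm, 5.07 ± 0.61 for Hist1h2bb, 4.38 ± 0.51 for Hist1h2bf, 3.06 ± 0.35 for Hist2h2be and 2.80 ± 0.33 for Hist2h2bb (SE, n = 5 and 4 libraries), each with a limma adjusted p of 0.0175. The 5 levels moved together rather than independently. Hist1h2bf stood at 0.272 to 0.403 of the level of Hist1h2bm in SOX10 high libraries and at 0.351 in SOX10 low library 1. Hist2h2be stood at 0.161 to 0.202 of it in SOX10 high libraries and at 0.211 in SOX10 low library 1. In the other 3 SOX10 low libraries, where the genes had little RNA, Hist2h2be instead stood at 0.853 to 2.53 of Hist1h2bm. The 5 genes are thus not independent results.

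No other histone gene was called. Hist1h2bc had 39.5, 11.5, 21.5, 25.1 and 29.5 RPKM in SOX10 high and 36.4, 29.4, 14.3 and 11.6 RPKM in SOX10 low libraries, with broad overlap and a fold change of 0.19 ± 0.40 (limma adjusted p = 1). Of the 19 H2B genes listed 7 were tested and 5 rose. The table also lists 18 H2A, 12 H3, 13 H4 and 6 H1 genes of the histone clusters, of which 1, 0, 1 and 1 were tested and none was called by limma. Their summed levels reached at most 14.2, 2.61, 6.39 and 35.9 RPKM in any library. The cDNA was made from poly(A) RNA, and the part of that template in these low levels was not tested. In the separately made table of PY230 tumour cells, with 2 libraries in each group, Hist1h2bm, Hist1h2bf and Hist2h2bb had at most 0.696 RPKM in any library, and Hist1h2bb at most 1.71 RPKM. Hist2h2be had 1.202 and 2.13 RPKM there in basal SOX10 high, 2.22 and 6.399 RPKM in luminal SOX10 high, and 12.8 and 10.0 RPKM in luminal SOX10 low libraries. Each SOX10 high library of PY230 cells was thus lower for it than each SOX10 low library, a difference that was not tested.

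**Figure D1:**
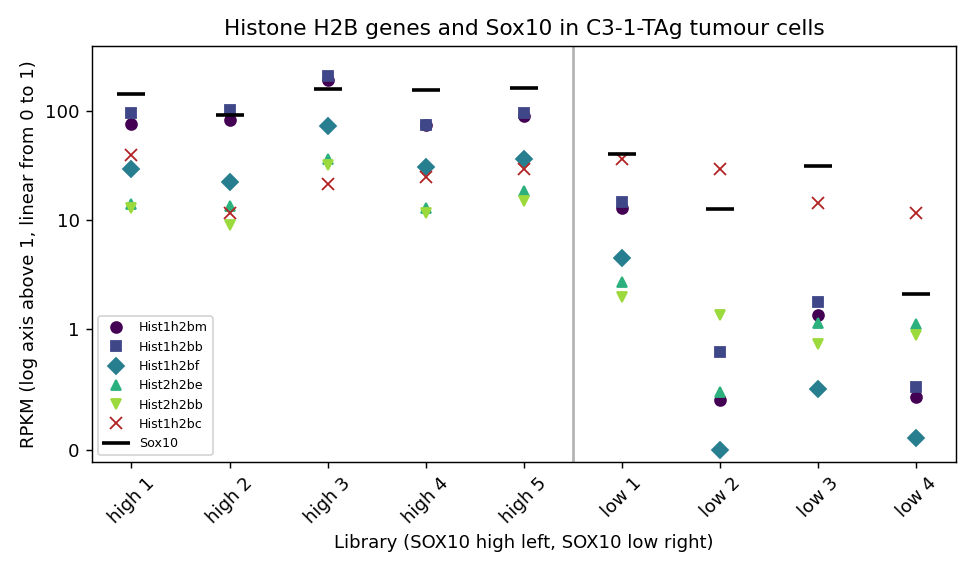
RPKM of the 5 H2B genes that rose, of Hist1h2bc and of Sox10 in each library, on an axis that is linear from 0 to 1 and logarithmic above. The 5 filled symbols sit at 9.10 RPKM or more in each SOX10 high library and at 1.75 RPKM or less in SOX10 low libraries 2 to 4. In SOX10 low library 1 they run from 1.97 RPKM (Hist2h2bb) to 14.5 RPKM (Hist1h2bb). There each gene lies between its own values in the other SOX10 low and the SOX10 high libraries. The crosses of Hist1h2bc stay between 11.5 and 39.5 RPKM throughout.

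The call of all 5 was lost without the filter on low values (limma adjusted p = 0.151) and when any of SOX10 high libraries 1, 4 and 5 or SOX10 low libraries 2, 3 and 4 was left out (limma adjusted p of 0.0566 to 0.0967), and 2 of the 5 were called without SOX10 high library 3; their fold changes stayed at 2.53 or more when a library was left out.

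Beyond H2B, no gene passed the test. Of 11948 genes tested, 5 (0.0418%) were called higher and 0 (0.0%) lower in SOX10 high cells by limma at an adjusted p under 0.05. At an unadjusted p under 0.05 it gave 197 higher (1.65%) and 168 lower (1.41%). The median fold change over all tested genes was -0.04, and 43.96% of them had a fold change above 0. Every SOX10 high library stood above every SOX10 low library for 70 genes (0.586%), and below for 57 genes (0.477%). These shares over all tested genes are the background for the counts of each gene list. The genes without overlap are described next as the most even differences in these data; apart from H2B, their adjusted p-values missed the threshold.

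**Figure D2:**
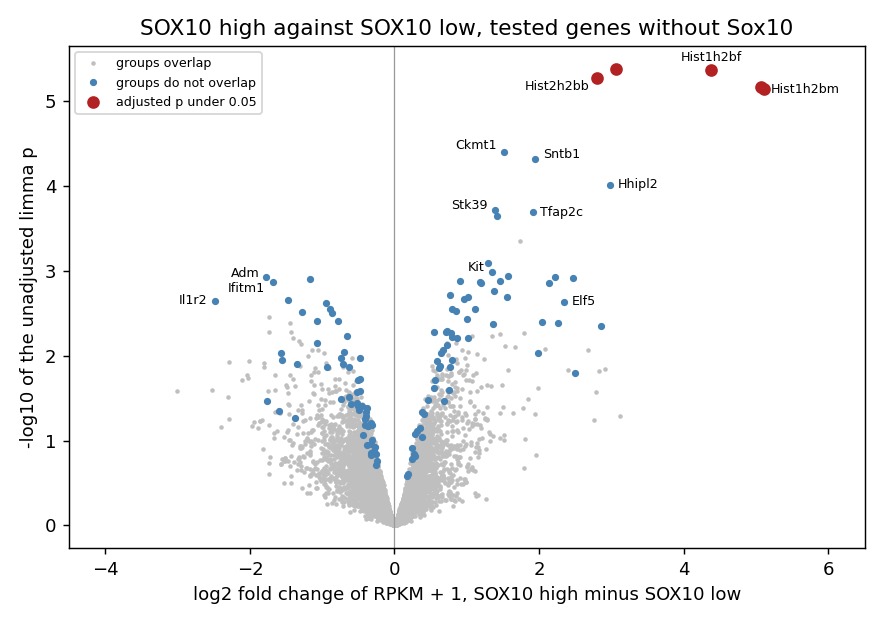
Log2 fold change of RPKM + 1 (SOX10 high minus SOX10 low, horizontal axis) against the negative log10 of the unadjusted limma p (vertical axis) for each tested gene without Sox10. The 5 red points, the H2B genes, lie at fold changes of 2.80 to 5.11; blue points are genes whose fractions do not overlap, grey points the others.

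Closest to the threshold were genes of energy buffering and the membrane skeleton. Ckmt1, the mitochondrial creatine kinase, had 21.9, 17.6, 22.5, 35.6 and 28.8 RPKM in SOX10 high libraries 1 to 5, against 6.61, 9.06, 9.43 and 7.12 RPKM in SOX10 low libraries 1 to 4 (log2 fold change 1.51 ± 0.22 SE, limma adjusted p = 0.0805). Sntb1, a syntrophin that links membrane proteins to the dystrophin complex, had 12.3, 10.8, 10.1, 18.4 and 17.3 RPKM in SOX10 high and 3.30, 2.11, 4.95 and 1.43 RPKM in SOX10 low libraries (1.95 ± 0.29, limma adjusted p = 0.0818). For both genes the fractions were clearly apart. Both were chosen after their values were seen, and each passed the threshold under some other scalings or filters.

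Hhipl2, a relative of the hedgehog-binding protein HHIP, had 7.47, 5.78, 20.0, 26.2 and 22.3 RPKM in SOX10 high and 2.004, 0.103, 1.86 and 0.381 RPKM in SOX10 low libraries (2.98 ± 0.49, limma adjusted p = 0.145). It was called once SOX10 high library 2, its lowest, was left out. Tfap2c, which encodes the AP-2 gamma transcription factor of mammary luminal cells, had 25.3, 11.5, 41.3, 34.3 and 44.0 RPKM in SOX10 high and 7.499, 6.24, 6.90 and 6.76 RPKM in SOX10 low libraries (limma adjusted p = 0.246). Stk39, a kinase that regulates cation-chloride cotransporters, had 45.4, 20.4, 40.2, 35.4 and 43.0 RPKM in SOX10 high and 10.0, 13.2, 13.95 and 15.4 RPKM in SOX10 low libraries (limma adjusted p = 0.246). For these 3 genes SOX10 high library 2 came closest to the SOX10 low range.

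Several other genes with higher values in every SOX10 high library encode transporters and pumps. Slc28a3, a concentrative nucleoside transporter, had 3.26, 9.96, 125, 27.1 and 15.4 RPKM in SOX10 high and 0.687, 1.25, 2.58 and 2.73 RPKM in SOX10 low libraries. Its level in SOX10 high library 3 was far above the rest. Atp6v0a4, a membrane subunit of the vacuolar proton pump, had 2.39, 5.93, 35.8, 6.37 and 20.3 RPKM in SOX10 high and 0.507, 0.885, 1.78 and 2.08 RPKM in SOX10 low libraries. The soluble pump subunits Atp6v1c2 and Atp6v1b1 did not overlap either, with 71.4, 22.9, 37.9, 58.8 and 59.4 RPKM in SOX10 high and 17.8, 21.4, 18.7 and 7.11 RPKM in SOX10 low libraries for Atp6v1c2. For Atp6v1b1 the values were 19.7, 13.5, 28.2, 17.8 and 19.4 RPKM in SOX10 high and 5.24, 11.3, 9.17 and 4.93 RPKM in SOX10 low libraries. The pump was not higher as a whole. Of 18 tested genes of vacuolar pump subunits these 3 were without overlap, beside 0.586% of all tested genes. The median fold change over the 18 was 0.06. The family was picked after its values were seen.

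Among the remaining named genes, Rbp7, a retinol-binding protein, had 8.70, 8.04, 22.6, 5.57 and 33.2 RPKM in SOX10 high and 0.078, 1.23, 4.28 and 1.86 RPKM in SOX10 low libraries. Shisa8, known in brain as an auxiliary protein of glutamate receptors, had 6.09, 3.29, 7.04, 14.9 and 24.2 RPKM in SOX10 high and 1.02, 0.182, 1.83 and 2.15 RPKM in SOX10 low libraries. Plekhb1, a membrane protein with a pleckstrin homology domain, had 35.5, 54.7, 95.0, 149 and 155 RPKM in SOX10 high and 32.6, 10.6, 28.4 and 11.4 RPKM in SOX10 low libraries. Its lowest SOX10 high value and highest SOX10 low value nearly met. Hrct1 had 14.98, 1.37, 1.96, 6.71 and 11.9 RPKM in SOX10 high and 0.404, 0.937, 0.890 and 0.185 RPKM in SOX10 low libraries. The limma adjusted p-values of the named genes without overlap that were higher, H2B, Sox10, Ckmt1 and Sntb1 apart, ran from 0.145 to 1.

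**Figure D3:**
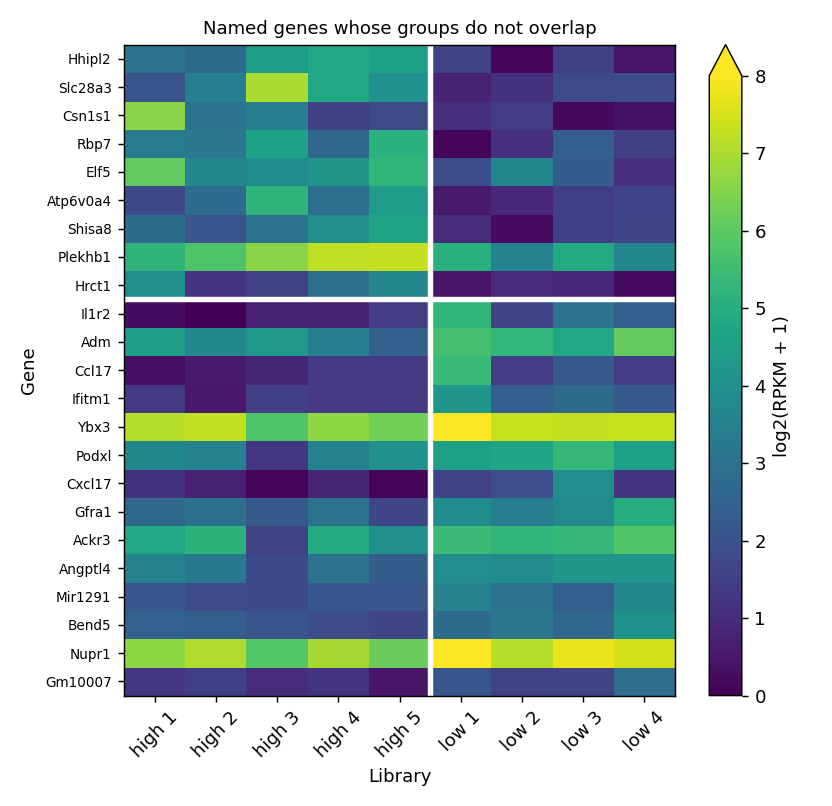
Log2(RPKM + 1) of named genes whose fractions do not overlap, H2B genes and Sox10 left out, by library (columns, SOX10 high left of the white line). The upper block holds genes higher in each SOX10 high library and the lower block genes lower in each; colours end at 8, and Ybx3 and Nupr1 in SOX10 low library 1 lie beyond.

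Luminal progenitor genes tended to higher values in SOX10 high cells. All 11 tested genes of 13 on the list had a fold change above 0, with a median of 1.27 against -0.04 over all tested genes. That median is the value of Ltf, which overlapped widely between the fractions (1.27 ± 1.78 SE). The fold changes of Aldh1a3, Cd14, Prom1 and Hey1 were smaller, at 0.01, 0.13, 0.44 and 0.53. Limma called 0 of the 11 in either direction. At an unadjusted p under 0.05 it gave 5 higher and 0 lower, beside 1.65% and 1.41% of all tested genes. In 4 of the 11 the fractions did not overlap, beside 0.586% of all tested genes. The list was chosen with earlier results of these data known, so the gap to that share is a description only. Elf5, the transcription factor that drives alveolar differentiation, had 66.1, 11.9, 13.9, 16.9 and 36.5 RPKM in SOX10 high libraries 1 to 5, against 2.82, 11.7, 4.15 and 1.13 RPKM in SOX10 low libraries 1 to 4 (fold change 2.35 ± 0.59, limma adjusted p = 0.813). SOX10 low library 2 nearly reached the lowest SOX10 high value. Kit, the stem cell factor receptor, had 76.5, 49.1, 38.8, 58.9 and 55.0 RPKM in SOX10 high and 13.2, 27.5, 33.6 and 15.2 RPKM in SOX10 low libraries (fold change 1.34 ± 0.30, limma adjusted p = 0.647).

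Wfdc18, a secreted protein of the whey acidic protein family, had 375, 327, 988, 219 and 212 RPKM in SOX10 high and 42.1, 196, 197 and 38.1 RPKM in SOX10 low libraries. The other gene of the list without overlap was Atp6v1c2, given above. Mfge8, a milk fat globule protein that bridges dying cells to phagocytes, had 262, 211, 521, 337 and 276 RPKM in SOX10 high and 240.4, 121, 178 and 218 RPKM in SOX10 low libraries, which overlap. Csn3, the kappa-casein gene, reached 961 RPKM in SOX10 high library 1 and 132 RPKM in SOX10 low library 2, against 16.4 to 102 RPKM in the other SOX10 high and 1.45 to 2.23 RPKM in the other SOX10 low libraries. Aldh1a3, a retinaldehyde dehydrogenase used as a progenitor marker, overlapped widely, at 4.31 to 49.2 RPKM in SOX10 high and 4.504 to 27.8 RPKM in SOX10 low libraries. The list's median was 0.55 without SOX10 high library 3 and 0.63 with libraries weighted by their quality.

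Milk protein RNA was scarce outside a few libraries. Only 2 of 9 milk protein genes reached the filter, and limma called 0 of them. At an unadjusted p under 0.05 it gave 1 higher and 0 lower, beside 1.65% and 1.41% of all tested genes. Csn1s1, the alpha-S1 casein gene, had 93.6, 7.19, 9.17, 1.88 and 2.65 RPKM in SOX10 high and 1.12, 1.71, 0.152 and 0.301 RPKM in SOX10 low libraries. SOX10 high library 1 carried most of it. Csn2, the beta-casein gene, missed the filter; it had 36.4, 0.887, 20.5, 1.53 and 0.814 RPKM in SOX10 high and 0.086, 0.031, 0 and 0.078 RPKM in SOX10 low libraries, again without overlap.

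Cartilage matrix genes also tended to higher values in SOX10 high cells, led by collagens of types IX and XI. Of 17 genes on the list 9 were tested, 7 with a fold change above 0 and 2 below, with a median of 1.11 against -0.04 over all tested genes. Limma called 0. At an unadjusted p under 0.05 it gave 4 higher and 1 lower, beside 1.65% and 1.41% of all tested genes. In 1 gene, higher in SOX10 high cells, the fractions did not overlap, beside 0.586% of all tested genes. The summed level of the list was 193, 168, 194, 294 and 256 RPKM in SOX10 high libraries 1 to 5 and 81.0, 73.0, 135 and 72.8 RPKM in SOX10 low libraries 1 to 4. The sums of the fractions do not overlap. The mean log2(RPKM + 1) of the list does, at 1.37 to 2.59 in SOX10 high and 1.02 to 1.88 in SOX10 low libraries.

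Col9a3, a chain of collagen IX, which coats the cartilage collagen fibril, had 50.3, 37.7, 59.9, 85.7 and 78.2 RPKM in SOX10 high and 19.2, 23.9, 32.9 and 9.14 RPKM in SOX10 low libraries (fold change 1.58 ± 0.36, limma adjusted p = 0.647). Col9a2, the second chain, had 30.3, 10.6, 55.8, 68.7 and 71.5 RPKM in SOX10 high and 16.4, 11.96, 8.93 and 7.07 RPKM in SOX10 low libraries, with overlap only through SOX10 high library 2. Col9a1, the first chain, had 106, 4.38, 8.03, 15.5 and 22.7 RPKM in SOX10 high and 1.40, 29.3, 6.29 and 0.385 RPKM in SOX10 low libraries, so SOX10 low library 2 exceeded 4 SOX10 high libraries. Col11a1, which nucleates cartilage fibrils, had 2.46, 11.8, 46.2, 47.4 and 39.5 RPKM in SOX10 high and 2.64, 0.096, 16.3 and 0.117 RPKM in SOX10 low libraries. Col11a2, its partner chain, had 0.673, 3.79, 5.40, 6.06 and 9.45 RPKM in SOX10 high and 2.19, 0.308, 2.33 and 1.40 RPKM in SOX10 low libraries.

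The list was not uniform. Acan, the aggrecan core protein, had 0.394, 41.3, 10.0, 48.1 and 11.5 RPKM in SOX10 high and 30.4, 0.067, 26.3 and 37.2 RPKM in SOX10 low libraries, near 0 in SOX10 high library 1 and SOX10 low library 2 alike. Matn4, a matrilin, ran the other way, at 2.19, 0.512, 0.490, 1.62 and 1.33 RPKM in SOX10 high and 1.77, 6.97, 1.95 and 14.6 RPKM in SOX10 low libraries. Col2a1, the main cartilage collagen, missed the filter. It had 0.344, 0.691, 0.299, 5.67 and 4.98 RPKM in SOX10 high and 0.32, 0.094, 0.726 and 0.207 RPKM in SOX10 low libraries. Of the SOXE factors, Sox9 had 31.4 to 112 RPKM in SOX10 high and 65.4 to 119 RPKM in SOX10 low libraries, and Sox8 4.73, 0.436, 2.92, 8.77 and 17.8 RPKM in SOX10 high and 1.44, 3.60, 0.854 and 0.942 RPKM in SOX10 low libraries. Of 8 tested SOX family genes limma called 0, with 0 higher and 0 lower at an unadjusted p under 0.05 apart from Sox10, which is not in that list.

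**Figure D4:**
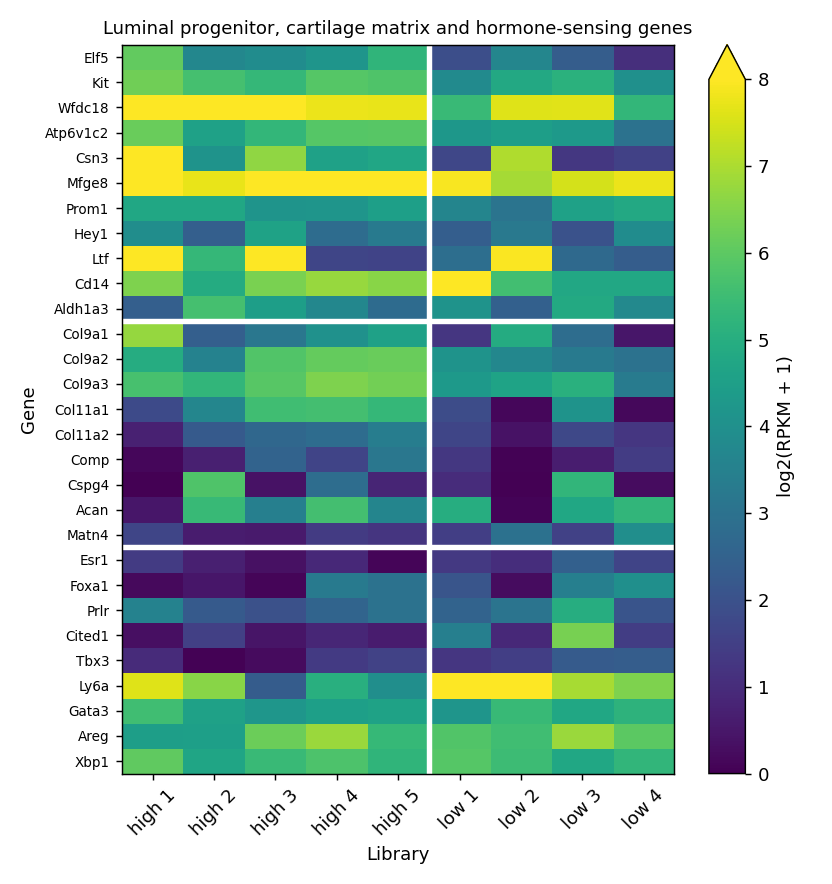
Log2(RPKM + 1) of the tested members of the luminal progenitor (top), cartilage matrix (middle) and hormone-sensing (bottom) lists by library, with SOX10 high left of the white line; colours end at 8. Elf5, Kit, Wfdc18, Atp6v1c2 and Col9a3 are brighter in each SOX10 high library, whereas SOX10 high library 1 and SOX10 low library 2 share high Ltf and dark Acan.

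Neural crest and glial genes, the classical setting of SOX10, showed no common direction. Of 27 genes on the list 12 were tested, 7 with a fold change above 0 and 5 below, with a median of 0.08. Limma called 0, with 1 higher and 1 lower at an unadjusted p under 0.05, beside 1.65% and 1.41% of all tested genes. Foxd3, a marker of early neural crest, had at most 0.058 RPKM in any library. Mbp, a myelin protein gene also transcribed outside glia, had 18.6, 13.6, 24.4, 16.9 and 19.1 RPKM in SOX10 high and 9.56, 17.9, 12.4 and 7.57 RPKM in SOX10 low libraries. Gfra1, the receptor of the neurotrophic factor GDNF, was the member without overlap, and in the other direction: 5.39, 6.73, 3.79, 7.13 and 2.21 RPKM in SOX10 high and 13.98, 9.24, 12.6 and 29.9 RPKM in SOX10 low libraries (fold change -1.48 ± 0.37, limma adjusted p = 0.813).

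Among the genes lower in every SOX10 high library, several encode receptors and secreted signals. Il1r2, a decoy receptor for interleukin 1, had 0.195, 0.041, 0.637, 0.615 and 1.75 RPKM in SOX10 high libraries 1 to 5, against 37.2, 2.21, 7.39 and 4.51 RPKM in SOX10 low libraries 1 to 4 (fold change -2.48 ± 0.62, limma adjusted p = 0.813). Adm, the vasodilator adrenomedullin, had 20.7, 12.2, 18.3, 9.61 and 4.57 RPKM in SOX10 high and 47.5, 38.3, 26.3 and 66.3 RPKM in SOX10 low libraries (fold change -1.77 ± 0.40, limma adjusted p = 0.647). Ackr3, the atypical receptor of CXCL12 that also binds adrenomedullin, had 27.0, 34.5, 1.99, 29.0 and 14.9 RPKM in SOX10 high and 42.4, 36.8, 39.1 and 55.4 RPKM in SOX10 low libraries. For Ackr3 the gap between the fractions was narrow, and SOX10 high library 3 was far below the others. Ccl17, a T cell chemokine, and Cxcl17, a mucosal chemokine, had at most 1.54 and 1.26 RPKM in SOX10 high and 1.74 to 41.4 and 1.28 to 14.2 RPKM in SOX10 low libraries.

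Podxl, a sialomucin of apical membranes, had 11.6, 10.6, 1.48, 10.5 and 15.7 RPKM in SOX10 high and 22.6, 25.7, 39.0 and 21.9 RPKM in SOX10 low libraries. Angptl4, an inhibitor of lipoprotein lipase, had 10.7, 8.44, 2.50, 6.88 and 4.10 RPKM in SOX10 high and 14.3, 13.5, 18.0 and 17.4 RPKM in SOX10 low libraries. Both were lowest in SOX10 high library 3. Nupr1, a stress-induced nuclear protein, had 99.6, 131, 58.9, 121 and 70.5 RPKM in SOX10 high and 262, 139, 218 and 177 RPKM in SOX10 low libraries. Ifitm1, an interferon-induced membrane protein, had 1.55, 0.446, 1.81, 1.53 and 1.501 RPKM in SOX10 high and 17.0, 4.25, 5.85 and 3.70 RPKM in SOX10 low libraries.

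Ybx3, a cold-shock domain RNA-binding protein, had 138, 153, 55.0, 97.7 and 76.9 RPKM in SOX10 high and 1896, 161, 158 and 161 RPKM in SOX10 low libraries; without library 1 the SOX10 low values were only just above the SOX10 high range. Il1r2, Ccl17, Ifitm1 and Ybx3 were all highest in SOX10 low library 1, the library rich in immune RNA. The other 3 SOX10 low libraries also stood above the SOX10 high range. For Ccl17 they did so only just, with a lowest value of 1.74 RPKM against a highest SOX10 high value of 1.54 RPKM. The part of immune cells in these differences was not tested. Bend5 had 2.17 to 4.67 RPKM in SOX10 high and 5.21 to 16.4 RPKM in SOX10 low libraries, and Gm10007 had 0.400 to 1.82 and 1.91 to 6.21 RPKM. Mir1291 had 2.44 to 3.53 RPKM in SOX10 high and 4.41 to 11.6 RPKM in SOX10 low libraries; its annotation overlaps that of the small nucleolar RNA gene Snora34, so their reads cannot be told apart. In bulk libraries, fewer cells with a transcript and less of it per cell cannot be told apart either.

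Hormone-sensing luminal genes tended to lower values in SOX10 high cells. Of 12 genes on the list 9 were tested, 1 with a fold change above 0 and 8 below, with a median of -0.92 against -0.04 over all tested genes. Limma called 0. At an unadjusted p under 0.05 it gave 0 higher and 4 lower, beside 1.65% and 1.41% of all tested genes. All 9 overlapped between the fractions. Esr1, the estrogen receptor, had 1.64, 0.632, 0.279, 0.914 and 0.068 RPKM in SOX10 high and 1.51, 1.07, 4.46 and 2.11 RPKM in SOX10 low libraries. Cited1, a transcriptional coactivator of estrogen-responsive cells, had 0.263, 1.84, 0.369, 0.800 and 0.524 RPKM in SOX10 high and 10.0, 0.897, 80.4 and 1.75 RPKM in SOX10 low libraries, highest in SOX10 low library 3. Ly6a, the stem cell antigen that marks hormone-sensing luminal cells, had 196, 94.5, 4.04, 31.7 and 14.5 RPKM in SOX10 high and 304, 462, 122 and 86.0 RPKM in SOX10 low libraries. Foxa1, the pioneer factor of estrogen receptor binding, had 0.089 to 8.75 RPKM in SOX10 high and 0.196 to 14.9 RPKM in SOX10 low libraries. Esr1 and Cited1 were low throughout most libraries, so these values lie close to 0 on the scale used.

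Interferon-induced genes all had lower mean values in SOX10 high cells, but unevenly. All 23 tested genes of 24 had a fold change below 0, with a median of -0.89 against -0.04 over all tested genes. Limma called 0, with 0 higher and 2 lower at an unadjusted p under 0.05, beside 1.65% and 1.41% of all tested genes. No gene was without overlap. The summed level was 391, 169.7, 494, 301 and 279 RPKM in SOX10 high libraries 1 to 5 and 1639, 526, 189.8 and 424 RPKM in SOX10 low libraries 1 to 4. Isg15, a ubiquitin-like modifier, had 30.5, 5.53, 42.1, 21.5 and 25.9 RPKM in SOX10 high and 206, 55.4, 9.70 and 39.7 RPKM in SOX10 low libraries. Stat2, a transducer of type I interferon signals, had 11.5, 5.95, 15.9, 6.09 and 5.76 RPKM in SOX10 high and 45.1, 21.3, 8.74 and 16.4 RPKM in SOX10 low libraries. By the summed level, SOX10 high library 2 and SOX10 low library 3 were the lowest of their fractions, and SOX10 low library 1 was the highest of all. Without SOX10 low library 1 the median of the list was -0.31.

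That library also held the immune markers. C1qa, a complement gene of macrophages, had 1.64, 1.11, 12.2, 17.4 and 19.5 RPKM in SOX10 high and 624, 1.61, 5.50 and 8.48 RPKM in SOX10 low libraries. H2-Aa, a class II antigen-presenting chain of immune cells, had 1.52, 1.38, 22.5, 17.7 and 36.9 RPKM in SOX10 high and 792, 15.2, 56.4 and 56.0 RPKM in SOX10 low libraries. Of 11 tested immune markers limma called 0, with 0 higher and 0 lower at an unadjusted p under 0.05; the median fold change was -1.28 with SOX10 low library 1 and 0.15 without it. Cd79a of B cells and Nkg7 of cytotoxic cells reached at most 0.446 and 0.055 RPKM. Fibroblast markers, 11 genes, summed to 3.92 to 71.1 RPKM in SOX10 high and 6.95 to 191 RPKM in SOX10 low libraries, and 10 endothelial markers to 0.531 to 9.83 and 0.725 to 25.9 RPKM. The summed levels of 8 pigment and Schwann cell, 7 red cell, 8 muscle and 8 fat cell markers were 2.59 to 6.22, 0.211 to 1.92, 1.95 to 18.7 and 0.659 to 7.503 RPKM in SOX10 high and 4.71 to 6.62, 0.652 to 7.39, 8.13 to 23.9 and 0.418 to 21.9 RPKM in SOX10 low libraries. The part of these cells in the differences above was not tested. The 16 tested antigen presentation genes had a median of -0.29. Limma called 0, with 0 higher and 1 lower at an unadjusted p under 0.05, beside 1.65% and 1.41% of all tested genes.

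Hypoxia and glycolysis genes leaned lower in SOX10 high cells. Of 25 tested genes 7 had a fold change above 0 and 18 below, with a median of -0.40. Limma called 0, with 0 higher and 2 lower at an unadjusted p under 0.05, beside 1.65% and 1.41% of all tested genes. Adm was the member without overlap. Vegfa, the endothelial growth factor, had 82.9, 117, 111, 88.5 and 66.2 RPKM in SOX10 high and 212, 79.8, 113 and 391 RPKM in SOX10 low libraries. Slc16a3, the lactate exporter, had 16.1, 12.3, 8.604, 17.9 and 6.86 RPKM in SOX10 high and 41.6, 25.3, 8.91 and 41.9 RPKM in SOX10 low libraries. SOX10 low libraries 1 and 4 were high for both genes, while libraries 2 and 3 lay in or near the SOX10 high range. Gapdh, at 1.86 to 3.75 RPKM in SOX10 high and 1.40 to 2.90 RPKM in SOX10 low libraries, was far under its glycolytic neighbours such as Tpi1 (197 to 337 and 227 to 289 RPKM). Gapdh has many processed copies in the mouse genome, and the part of read assignment in its level was not tested.

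Proliferation genes did not separate the fractions, though DNA replication genes leaned slightly higher in SOX10 high cells. The 24 mitosis genes had a median fold change of 0.00 and the 24 DNA replication genes of 0.14, with limma calling 0 in each and 0 at an unadjusted p under 0.05 in either direction. Of the mitosis genes 12 had a fold change above 0 and 12 below, and of the DNA replication genes 19 above and 5 below. E2f1, a cell cycle transcription factor released by loss of RB, had 32.5, 34.7, 38.3, 32.9 and 43.2 RPKM in SOX10 high and 30.4, 29.4, 28.0 and 29.9 RPKM in SOX10 low libraries. Cdkn2b, an inhibitor of CDK4 and CDK6, had 13.4, 12.6, 11.2, 15.01 and 11.3 RPKM in SOX10 high and 18.2, 17.6, 17.6 and 18.5 RPKM in SOX10 low libraries. For both the fractions did not overlap, but the differences were small, at 0.29 ± 0.15 and -0.48 ± 0.15 on the log2 scale (limma adjusted p = 1 and 1). The tested genes of the mesenchymal (13), fibrillar matrix (17), basement membrane (20), FGF (12), EGF (11), Wnt (19), Notch (11) and BMP or TGF-beta (17) lists had medians of -0.26, 0.16, -0.10, 0.20, -0.16, -0.08, -0.16 and -0.42. Across these 8 lists limma called 0 genes. At an unadjusted p under 0.05 it gave 3 higher and 5 lower, beside 1.65% and 1.41% of all tested genes.

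For some genes the libraries of a fraction differed far more than the fractions did. Met, Ltf, Postn, Capza2, Saa3, Suclg2, Ccl4 and Igfbp3 were among the genes with the largest within-fraction spread. Met, a receptor tyrosine kinase, had 2126, 22.4, 9.54, 13.8 and 10.5 RPKM in SOX10 high and 11.1, 2143, 18.7 and 12.3 RPKM in SOX10 low libraries, and its neighbour Capza2, an actin capping protein, 4729, 79.4, 63.1, 62.8 and 81.1 RPKM in SOX10 high and 67.8, 5652, 68.8 and 75.1 RPKM in SOX10 low libraries. Both were extreme in SOX10 high library 1 and SOX10 low library 2 only. Suclg2, a citric acid cycle enzyme, followed the same pair of libraries, at 148 RPKM in the SOX10 high and 119 RPKM in the SOX10 low library, and at most 4.94 RPKM elsewhere. Ltf, the iron-binding lactoferrin, was high in SOX10 high libraries 1 and 3 and SOX10 low library 2, with 544, 39.5, 374, 2.19 and 2.04 RPKM in SOX10 high and 6.39, 247, 5.67 and 4.09 RPKM in SOX10 low libraries. The order of genes along chromosome 6 is that of RefSeq for GRCm38.p6.

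**Figure D5:**
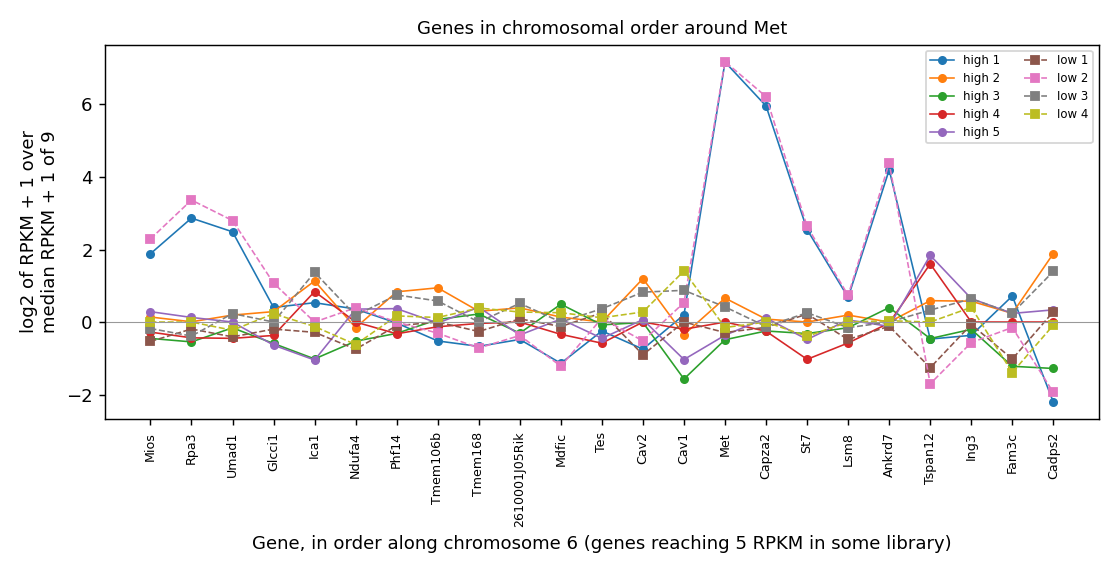
Log2 of RPKM + 1 over the median of the 9 libraries for genes in order along chromosome 6 around Met, 1 line per library (solid circles SOX10 high, dashed squares SOX10 low). Met and Capza2 stand out most, in SOX10 high library 1 and SOX10 low library 2.

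Postn and Igfbp3 showed a further pattern. Postn, the matricellular protein periostin, had 3.22, 437, 21.7, 75.7 and 69.2 RPKM in SOX10 high and 147, 1.22, 1026 and 27.1 RPKM in SOX10 low libraries, highest in SOX10 low library 3 and SOX10 high library 2. Igfbp3, an insulin-like growth factor binding protein, had 0.190, 67.5, 5.70, 97.1 and 40.8 RPKM in SOX10 high and 32.7, 0.054, 59.3 and 4.89 RPKM in SOX10 low libraries. Saa3, an acute phase protein, and Ccl4, a macrophage chemokine, peaked in SOX10 low library 1 at 327 and 388 RPKM, against at most 23.6 and 43.0 RPKM in SOX10 high libraries. Limma gave each of these genes an adjusted p of 1.

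The shared extremes can be summarised by how libraries of the 2 fractions departed from their own fraction's mean. These departures correlated across genes at r = 0.824 for SOX10 high library 1 with SOX10 low library 2 and at r = 0.697 for SOX10 high library 2 with SOX10 low library 3. No other pair of libraries from the 2 fractions exceeded r = 0.277, and pairs with the same number ranged from -0.337 to 0.203. Such r values rest on genes of a single library each and carry no p.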

How the data were processed

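RNA of sorted cells was read in single-end runs of 50 or 75 bases after SmartSeq2 amplification, per the labels' protocols; that method carries no molecular identifiers or strand. The submitters' processing notes name the mm9 build, FastQC, HISAT2 2.0.5 and StringTie 1.3.1c. The authors deposited RPKM per gene; the labels state no annotation, read totals or filters. In the C3-1-TAg table no value lies above 0 and at or under 2, so 2 was taken off each value above 0. Symbols were respelled for 2196 genes. Depth is known only in relative terms, so no counting intervals are given. Genes with at least 1 RPKM in 4 libraries were fitted in R 4.3.3 with limma 3.58.1 on log2(RPKM + 1) (variance trend, no replicate term, two-sided, Benjamini-Hochberg adjusted p under 0.05). The fit was tested on simulated data with independent spread in each gene and library. That simulation does not cover departures shared between libraries or genes. Named genes are Sox10, called genes, in each direction the 15 with the largest fold change among those without overlap that reach 5 RPKM, the 10 of largest within-fraction spread, and list members; exceptions are marked, and some genes the rule names are not reported here. Members and lists were chosen with earlier results of these data known. Same-numbered libraries do not pair.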

Additional observations from a re-analysis of the deposited data

Results flagged for a closer look

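A library far from the others of its fraction was found in 16 of 150 groups of values looked at (10.7%), where chance gives about 1 in 20. Some of these genes, Met, Capza2, Ltf, Saa3 and Suclg2 among them, were named for their large spread within a fraction, so the share cannot be read against chance. SOX10 high library 1 was far above the other SOX10 high libraries for Met (2126 RPKM), Capza2 (4729 RPKM) and Suclg2 (148 RPKM). SOX10 high library 2 was far below them for Sox10 (91.9 RPKM) and Ifitm1 (0.446 RPKM) and far above them for Krt5 (64.9 RPKM). SOX10 high library 3 was far above them for Hist1h2bm (196 RPKM) and far below them for Podxl (1.48 RPKM).

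SOX10 low library 1 was far above the other SOX10 low libraries for Ybx3 (1896 RPKM) and Saa3 (327 RPKM). SOX10 low library 2 was far above them for Met (2143 RPKM), Capza2 (5652 RPKM), Ltf (247 RPKM) and Csn3 (132 RPKM) and far below them for Acan (0.067 RPKM). SOX10 low library 4 was far below them for Atp6v1c2 (7.11 RPKM).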

How the results depend on the processing

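The 5 calls, all higher in SOX10 high cells, became 3 with the values as deposited, 2 with a pseudocount of 0.1, 8 with array weights and 0 with no filter by limma (603 genes at an unadjusted p under 0.05, of 19715 tested). They were 4 to 7 under the other scalings, filters and priors. Leaving out 1 library gave 0 to 11 calls by limma (237 to 647 genes at an unadjusted p under 0.05), of which 0 to 10 were higher and 0 to 1 lower; the 11 came without SOX10 high library 2, and the lower 1 of them was Dynap. Genes without overlap numbered 79 to 182 higher and 69 to 257 lower with a library left out, fewer libraries making overlap rarer; the lower ones were 113 with no filter, 29 with at least 5 RPKM in 4 libraries and 31 after quantile normalization. With the replicate number as a block, libraries 1 to 4 of each fraction gave 0 calls by limma. That fit gave 209 genes at an unadjusted p under 0.05 and limma adjusted p of 0.453 to 0.657 for H2B. Same-numbered libraries departed from their fraction means with r of -0.337 to 0.203, so they share only a number. Across the fractions, only SOX10 low library 4 had its highest r of departures with its own number (r = 0.203). The fold changes of the 5 called H2B genes kept their sign under each alternative run. Of 588 list medians recomputed, 7 moved by more than the spread between libraries. Depth limits what can be said of genes near 1 RPKM.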
